A study of Mus musculus with 6 samples.

Results

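Transcripts of 9 genes that write, remove or read DNA methylation were followed through the erythroid differentiation of mouse MEL cells: Dnmt1, Dnmt3a, Dnmt3b, Uhrf1, Tet1, Tet2, Tet3, Mbd2 and Mbd3. They were chosen by name, each was represented by its RefSeq transcript with the highest mean count, and they are 9 of 23896 genes with a counted transcript. MEL is an established mouse erythroleukemia line held at the proerythroblast stage, and DMSO at 2% in the medium starts its terminal differentiation. Cultures grown in suspension were collected at day 0, before induction, and at day 2 and day 4 of 2% DMSO, with 2 biological replicates at each day and 6 poly(A)-selected, strand-specific libraries in all. No vehicle-treated or untreated culture of the later days was among the libraries, so time in culture and DMSO cannot be told apart.

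DNA methylation in mammals is the addition of a methyl group to cytosine, mostly where it is followed by guanine (a CpG site). DNMT1 copies the mark onto the new strand after replication and is brought there by UHRF1, whereas DNMT3A and DNMT3B methylate sites anew. TET enzymes oxidize the methyl group as a route to its removal, and MBD2 and MBD3 are alternative subunits of the NuRD repressor complex, of which MBD2 binds methylated CpG strongly and MBD3 does so weakly in mammals. Loss of methylation across the genome is known from erythroid differentiation in the mouse, which is why these genes are followed in this setting.

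Of the 9 genes, 5 had lower transcript levels at day 4 than at day 0 (Dnmt1, Uhrf1, Dnmt3b, Mbd3 and Tet1), 2 had higher levels (Dnmt3a and Tet2), and Tet3 and Mbd2 were not called. A call is an adjusted p below 0.05 in edgeR's quasi-likelihood test, with Benjamini-Hochberg adjustment over all 18351 transcripts tested. Calls were common in these libraries: of 12381 genes tested, 36.4% were called lower and 35.5% higher at day 4 against day 0, so the counts of members called are to be read against those shares. At day 2 against day 0, 5 members were called lower, beside 31.5% of all genes, and 0 higher, beside 31%. At day 4 against day 2, 3 were called lower, beside 16.2% of all genes, and 0 higher, beside 14%. At an unadjusted p below 0.05 in edgeR, 0 members were higher at day 2 against day 0 and 2 at day 4 against day 2. DESeq2 called 0 members higher in both. Tet1 passed the filter on low counts only through day 0, so its call carries no weight in these counts. Levels are given as CPM, counts brought to a common library total with edgeR's TMM factors. Every p-value rests on only 2 libraries per day. Its estimate of a transcript's spread is shared over the 3 days and borrows from the other transcripts.

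The libraries held 35294930 to 53899476 counts on transcripts. Scaling by total counts in place of TMM moved the median log2 change of all genes to 0.21 at day 2 and 0.10 at day 4, both against day 0, where the TMM values were 0.01 and -0.02. It also moved the share of calls that were higher from 50.2% to 64.5% for day 2 against day 0 and from 47.2% to 33.2% for day 4 against day 2. The erythroid identity of the cultures was visible in the markers, of which 8 of 9 were called higher and 1 lower at day 4 against day 0. Slc4a1, the anion exchanger of the red cell membrane, had 9 and 12 counts at day 0 and 1710 and 1513 at day 4. The beta globin gene Hbb-bs had a mean of 41.8 CPM before induction and 5035 CPM at day 4, whereas Klf1, an erythroid transcription factor, had 192 and 309 CPM at day 0 and 173 and 171 CPM at day 4. Its log2 change of -0.54 (SE 0.18, adjusted p = 0.0188, edgeR) became -0.17 without the second day 0 library (adjusted p = 0.156), and it was not called without either day 4 library (adjusted p = 0.0645 and 0.0673). Markers of other lineages were low: the summed level was at most 0.42 CPM for 3 T cell markers, 0.17 CPM for 3 B cell markers, 1.43 CPM for 3 myeloid markers and 3.24 CPM for 3 fibroblast markers in any library. The exception was the megakaryocyte list, with Pf4, Itga2b and Gp9 summing to 268 to 271 CPM at day 0, 211 to 233 CPM at day 2 and 543 to 617 CPM at day 4; Pf4 fell by 2.39 on the log2 scale, and Itga2b rose by 1.38.

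**Figure D1:**
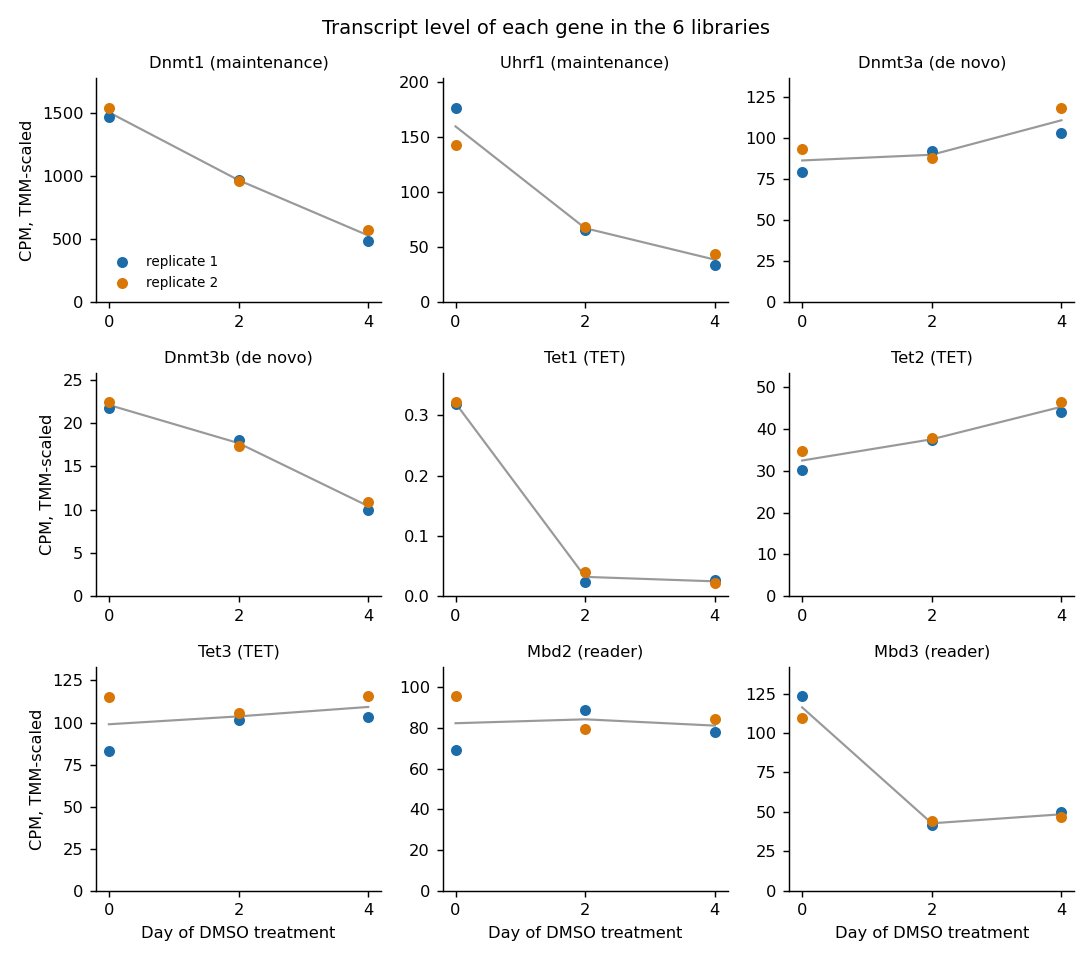
Transcript level (CPM, TMM-scaled, vertical axis from 0) of each of the 9 genes against day of DMSO treatment. Points are the 2 libraries of a day and the grey line joins the means; Dnmt1 dropped from 1502 to 526 CPM, while the libraries of different days overlapped for Tet3 and Mbd2.

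Reference promoter sequence (RefSeq windows of 300 bases around a start site, GRCm38.p6) is shown for the maintenance pair. The levels of the pair fell at both steps, and so did that of Dnmt3b. As background, E2F transcription factors bind promoters of many genes used in S phase. The windows were searched on both strands for TTTCGCGC, TTTGGCGC, TTTCCCGC and TTTGCCGC, which are written forms of the E2F site. Of 32851 promoter windows, 2.26% held at least 1 of them, and 2.6% of 27025 genes had such a window. Each of these forms contains CG. The shares were not matched for CpG content or for the number of windows per gene. Among 13 windows of 8 members, all but Mbd2, 1 of Dnmt1 held 2 matches and 1 of Uhrf1 held 1. The other 6 members, Dnmt3b among them, held 0. No match overlapped another. The windows with matches, chr9:20952574-20952873 and chr17:56304063-56304362, lie at start sites inside the loci of Dnmt1 and Uhrf1. Those at the outer starts of the loci, chr9:20959839-20960138 and chr17:56303087-56303386, held 0. Distances below are from the start site of the window. The 30 bases around each match are printed 5′ to 3′ on the strand of the gene, with the match in capitals; a match in the opposite orientation reads as its reverse complement.
Dnmt1, chr9:20952824-20952853, minus strand, match 219 bases before the start site: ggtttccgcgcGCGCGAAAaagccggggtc
Dnmt1, chr9:20952574-20952603, minus strand, match 33 bases after the start site: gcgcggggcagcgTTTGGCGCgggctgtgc
Uhrf1, chr17:56304117-56304146, plus strand, match 185 bases before the start site: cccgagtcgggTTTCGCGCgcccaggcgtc
The ratio of observed to expected CpG was 0.91 in that Dnmt1 window and 0.96 in that Uhrf1 window, above 88.1% and 91.6% of all windows, whose median was 0.38. The letters describe the reference sequence, and binding was not measured here. For AGATAA, a written form of the GATA site, 0 of the 13 windows matched, beside 11.2% of all windows.

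Dnmt1 lies at chr9:20907206-20959888 on the minus strand (GRCm38) and its transcript NM_001199431 has 39 exons. Its level was 1465 and 1539 CPM in the day 0 libraries, 969 and 960 CPM at day 2, and 486 and 567 CPM at day 4. The libraries of the 3 days did not overlap, and each later day lay below the one before. The change was -0.64 on the log2 scale in the first 2 days (SE 0.13, adjusted p = 0.00134, edgeR) and -0.87 in the second 2 days (SE 0.13, adjusted p = 0.000977). From day 0 to day 4 it amounted to a 2.85-fold lower level (log2 change -1.51, SE 0.13, adjusted p = 1.83e-06). With 68085 counts on average at day 0, Dnmt1 was also the most abundant of the 9 genes per length, at 280 CPM per kilobase of transcript ± 9.85 (SD, n = 2). The 4 counted transcripts of Dnmt1 hold nearly the same reads, with mean counts from 44415 to 44505, so the counts do not tell its start sites apart.

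Uhrf1, at chr17:56303337-56323486 on the plus strand, encodes the protein that recognizes hemimethylated CpG and ubiquitinates histone H3 to recruit DNMT1. Its transcript NM_010931 with 17 exons had levels of 177 and 143 CPM at day 0, 65.6 and 68.5 CPM at day 2, and 33.6 and 43.3 CPM at day 4. Every later library was below every earlier one. It fell by 1.25 on the log2 scale in the first 2 days (SE 0.14, adjusted p = 2.52e-05, edgeR) and fell by 0.80 in the second (SE 0.14, adjusted p = 0.00237), to a level 4.15-fold lower at day 4 than at day 0 (adjusted p = 4.5e-07).

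The ratio of 2 members within a library does not depend on how libraries are scaled. Per kilobase, Dnmt1 had 5.53 and 7.21 times the counts of Uhrf1 at day 0, 9.87 and 9.36 times at day 2, and 9.66 and 8.75 times at day 4. Both later days lay above day 0 and overlapped each other. For neither gene did the second change differ from the first beyond the error in the main fit. The difference of the steps was -0.23 for Dnmt1 (95% interval -0.72 to 0.25) and 0.45 for Uhrf1 (95% interval -0.09 to 0.99). Leaving out 1 library, the Uhrf1 difference ranged from 0.25 to 0.61. These values do not show that the steps of Uhrf1 were equal.

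Of 7 partners of maintenance methylation, 4 were called lower and 1 higher at day 4 against day 0, beside 36.4% and 35.5% of all genes. Their median log2 change was -1.15, beside -0.02 over all genes tested. Hells, a chromatin remodeler needed for normal methylation, went from 147 to 45.8 and 19.7 CPM at days 0, 2 and 4 (log2 change -2.90, SE 0.13, adjusted p = 2.7e-08, edgeR). Lig1, the ligase that joins Okazaki fragments and binds UHRF1 when methylated, fell by 1.98 on the log2 scale (SE 0.13, adjusted p = 2.35e-07). Uhrf2, the paralog of Uhrf1, rose from 39.2 to 62.8 and 55.0 CPM (log2 change 0.49 at day 4 against day 0, SE 0.10, adjusted p = 0.00102). The paralogs therefore changed in opposite directions.

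Of 15 genes of DNA replication and S phase, 12 were called lower at day 2 against day 0, beside 31.5% of all genes. At day 4 against day 2, 14 were called lower, beside 16.2%. At day 4 against day 0, 15 were, beside 36.4%, with a median log2 change of -1.56. The 3 not called at day 2 were Cdc6, a replication licensing factor, Mki67, the proliferation marker Ki-67, and Top2a, topoisomerase II alpha. Their log2 changes were -0.18 (adjusted p = 0.17, edgeR), -0.05 (adjusted p = 0.776) and 0.08 (adjusted p = 0.572). These 3 were named after their values were seen. Rrm2, a subunit of ribonucleotide reductase, fell by 2.60 on the log2 scale (SE 0.12, adjusted p = 3.11e-08, edgeR) and Tyms, thymidylate synthase, fell by 2.40 (SE 0.15, adjusted p = 2.14e-07). The summed level of the 15 genes was 6485 to 6761 CPM at day 0, 4771 to 4881 CPM at day 2 and 2529 to 2796 CPM at day 4, and their part in the change of Dnmt1 and Uhrf1 was not tested. In bulk RNA, fewer cells in S phase and less RNA per cell cannot be told apart. Among 10313 genes with a mean count of at least 100, the 3 profiles nearest to that of Dnmt1 over the 6 libraries, by root mean square difference of centred log2 CPM, were those of Shq1 (0.054), Mcm7 (0.061) and Tubb5 (0.061). Nearest to Uhrf1 were Ehd2 (0.116), Mcm5 (0.118) and Mt1 (0.119). Dnmt1 and Uhrf1 were chosen for this after their values were seen.

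Dnmt3a (chr12:3801559-3914443, plus strand, transcript NM_001271753 with 23 exons) had levels of 79.4 and 93.5 CPM at day 0, 92.1 and 87.8 CPM at day 2, and 103 and 119 CPM at day 4. The day 4 libraries were above all others, while days 0 and 2 overlapped. Against day 0, its level at day 4 was 1.28-fold higher (log2 change 0.36, SE 0.12, adjusted p = 0.0168, edgeR), and neither step alone was called, with 0.06 (adjusted p = 0.694) and 0.30 (adjusted p = 0.0723). The call at day 4 was lost without the first day 0 library (log2 change 0.24, adjusted p = 0.0632) and without the second day 4 library (0.25, adjusted p = 0.165). A shorter transcript of the gene, NM_153743, held 90.9% to 94.6% as many counts as the longer one in every library, and most of its reads are shared with it.

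Dnmt3b (chr2:153649411-153687730, plus strand, transcript NM_001003961 with 24 exons) went the other way. Its levels were 21.8 and 22.4 CPM at day 0, 18.0 and 17.4 CPM at day 2, and 9.95 and 10.9 CPM at day 4, with no overlap between days. It was 2.12-fold lower at day 4 than at day 0 (log2 change -1.08, SE 0.12, adjusted p = 1.27e-05, edgeR), with a step of -0.76 in the second interval (SE 0.12, adjusted p = 0.00142). The steps were not called as different (adjusted p = 0.13). The first step of -0.32 (SE 0.12, adjusted p = 0.0348) was close to the threshold: it was not called with total counts (-0.12, adjusted p = 0.389), with no filter on low counts (adjusted p = 0.0542), or without the second day 0 library or either day 2 library (adjusted p from 0.0534 to 0.183).

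Within a library, Dnmt3a had 1.80 and 2.06 times the counts per kilobase of Dnmt3b at day 0, 2.53 and 2.50 times at day 2, and 5.14 and 5.39 times at day 4. The days were fully separated. Dnmt1 against Dnmt3a moved in the opposite sense, with Dnmt1 at 30.01 and 26.8 times Dnmt3a in the day 0 libraries, 17.1 and 17.8 times in those of day 2, and 7.65 and 7.77 times in those of day 4. Per length, Dnmt1 thus remained the most abundant DNA methyltransferase transcript at every day, and its lead over Dnmt3a shrank at each step. The size of these ratios depends on the transcript taken for Dnmt3a: with NM_153743, of 5424 bases, Dnmt1 was at 19.7 and 18.3 times Dnmt3a at day 0 and 5.02 and 5.14 times at day 4, and Dnmt3a was at 2.74 and 3.02 times Dnmt3b at day 0 and 7.82 and 8.16 times at day 4.

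**Figure D2:**
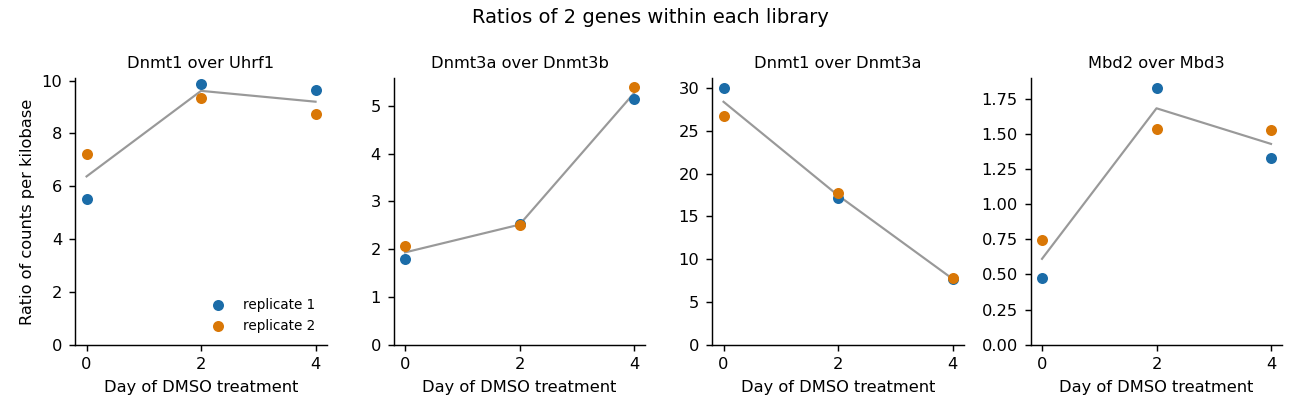
Ratio of counts per kilobase of transcript between 2 genes within each library (vertical axes from 0) against day of DMSO treatment; points are libraries and the grey line joins the means of the 2 libraries of a day. The Dnmt3a over Dnmt3b ratio rose from 1.93 to 5.26 on average, and Mbd2 over Mbd3 from 0.61 to 1.43.

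Dnmt3l, the catalytically inactive cofactor of the de novo enzymes, had 0 to 6 counts per library and was not tested. The other 12 genes linked to de novo methylation were all tested. At day 4 against day 0, 7 were called lower and 1 higher, beside 36.4% and 35.5% of all genes. Their median log2 change was -0.40. Suv39h2, a histone H3K9 methyltransferase, fell by 1.55 on the log2 scale (SE 0.13, adjusted p = 1.29e-06, edgeR). Zfp57, a zinc finger protein that protects imprints, fell by 1.52 (SE 0.23, adjusted p = 0.000117, edgeR), from 3.91 to 2.03 and 1.35 CPM. The transcript that stood for Zfp57, NR_033137, is a non-coding RefSeq entry. Setd2, which writes the H3K36 mark that DNMT3 enzymes read, rose from 117 to 197 and 196 CPM (log2 change 0.75, SE 0.10, adjusted p = 6.58e-05).

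Among the TET genes, Tet1 (chr10:62804570-62887469, minus strand, NM_001253857, 13 exons) was scarce throughout. It had 13 and 16 counts in the day 0 libraries, 1 and 2 at day 2, and 1 in each library at day 4. At most 3 counts per library were treated as the floor, so no fitted fold change is given. From pooled counts of 29 and 3, the day 0 level was 9.72 times that of day 2 (exact 95% interval 3.01 to 49.8), and from 29 and 2 it was 13.0 times that of day 4 (3.3 to 113). These intervals cover counting error only, and reads from 1 molecule copied by PCR would make them too narrow. They pool the 2 libraries of a day, so they leave out the spread between cultures. Tet1 passed the filter only through day 0, so they are no test of a fall. Per length, its day 0 level was 0.022 CPM per kilobase, beside 3.53 for Tet2 and 9.08 for Tet3.

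Tet2 (chr3:133463677-133545136, minus strand, NM_001040400, 11 exons) had levels of 30.1 and 34.8 CPM at day 0, 37.2 and 37.8 CPM at day 2, and 44.1 and 46.4 CPM at day 4. Each later day was above the one before, without overlap. At day 4 it was 1.40-fold higher than at day 0 (log2 change 0.48, SE 0.12, adjusted p = 0.00294, edgeR), while the steps of 0.21 (adjusted p = 0.134) and 0.27 (adjusted p = 0.095) were not called. The nearest profiles were those of Serf2 (0.028), Pcbp4 (0.030) and Trim58 (0.037).

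Tet3 (chr6:83362373-83457208, minus strand, NM_183138, 11 exons) had levels of 82.8 and 115 CPM at day 0, 102 and 106 CPM at day 2, and 103 and 115 CPM at day 4. The days overlapped in every comparison. Its log2 change from day 0 to day 4 was 0.14, with a 95% interval from -0.18 to 0.46, which does not show that the level stayed the same. Without the second day 0 library it was 0.39 (adjusted p = 0.00529). Per kilobase, Tet3 had 2.32 and 2.78 times the counts of Tet2 at day 0 and 1.96 and 2.095 times at day 4.

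Around the TET enzymes, 4 of 6 partners were tested. At day 4 against day 0, 2 of them rose and 2 fell, beside 35.5% and 36.4% of all genes. Ogt, the O-GlcNAc transferase that binds TET proteins, rose from 295 to 521 and 1018 CPM (log2 change 1.79 at day 4 against day 0, SE 0.14, adjusted p = 8.58e-07, edgeR). Cxxc5, a CpG-binding protein, rose by 1.26 on the log2 scale (SE 0.14, adjusted p = 1.38e-05). Hcfc1, a partner of OGT, fell by 0.63 on the log2 scale (SE 0.13, adjusted p = 0.00119), and Dcaf1, a substrate receptor of a ubiquitin ligase that acts on TET proteins, fell by 0.86 (SE 0.11, adjusted p = 3.25e-05). Cxxc4 and Wt1 had at most 1 count in any library.

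Of 14 genes of active demethylation and base excision repair, 12 were tested. At day 4 against day 0, 4 were called higher and 5 lower, with a median log2 change of -0.04. These are 33.3% and 41.7% of those tested, near the 35.5% and 36.4% of all genes. Gadd45g, of a family of stress sensors linked to demethylation, rose from 9.59 to 27.9 and 53.2 CPM (log2 change 2.47, SE 0.17, adjusted p = 3.8e-07, edgeR). Gadd45a rose by 1.01 on the log2 scale (SE 0.12, adjusted p = 1.45e-05). Apex1, the endonuclease that cuts at abasic sites, fell by 2.29 (SE 0.18, adjusted p = 7.43e-07), and Parp1, the poly(ADP-ribose) polymerase that senses strand breaks, fell by 1.06 (SE 0.12, adjusted p = 1.36e-05).

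**Figure D3:**
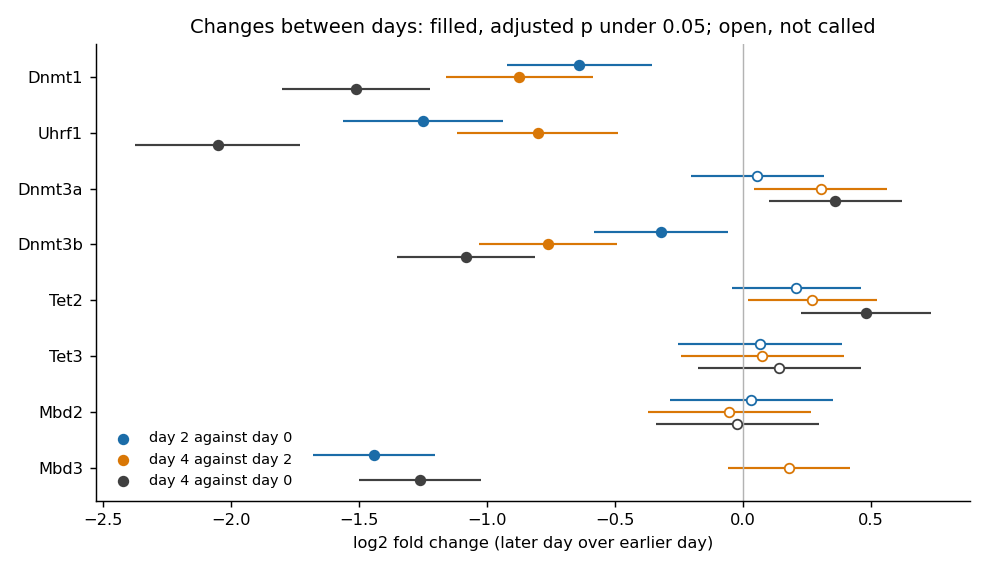
Log2 fold change of 8 genes in 3 comparisons of days, with 95% intervals from edgeR's quasi-likelihood fit; filled points have an adjusted p below 0.05 and open points do not. Tet1 is left out because its later libraries were at the floor; Mbd3 is far below 0 at day 2 against day 0 and above it, uncalled, at day 4 against day 2.

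Mbd3 (chr10:80392539-80399531, minus strand, NM_013595, 7 exons) had levels of 123 and 109 CPM at day 0, 41.5 and 44.1 CPM at day 2, and 50.0 and 47.0 CPM at day 4. Both later days lay far below day 0. Its log2 change was -1.44 in the first 2 days (SE 0.11, adjusted p = 1.55e-06, edgeR) and 0.18 in the second, which was not called (SE 0.11, adjusted p = 0.224). The steps differed by 1.62 on the log2 scale (SE 0.19, adjusted p = 0.000276), and Mbd3 was the 1 member of 9 called for that difference, beside 30% of all genes tested. At day 4 its level was 2.40-fold lower than at day 0 (log2 change -1.26, SE 0.11, adjusted p = 1.63e-06).

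Mbd2 (chromosome 18, 70568225 to 70629134, plus strand, NM_010773, 7 exons) had levels of 69.2 and 95.5 CPM at day 0, 89.0 and 79.5 CPM at day 2, and 77.8 and 84.6 CPM at day 4. The days overlapped. Its log2 change from day 0 to day 4 was -0.02, with a 95% interval from -0.34 to 0.30. Per kilobase, Mbd2 had 0.48 and 0.74 times the counts of Mbd3 at day 0, 1.83 and 1.54 times at day 2, and 1.33 and 1.53 times at day 4. On this scale Mbd3 was the more abundant transcript in every day 0 library, and in every later library Mbd2 was.

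The 12 other NuRD subunits were all tested. At day 2 against day 0, 7 were called lower and 0 higher, with a median log2 change of -0.48 beside 0.01 over all genes. At day 4 against day 2, 3 were called lower and 0 higher, with a median of 0.07, and at day 4 against day 0, 8 were called lower and 1 higher. Over all genes, 31.5%, 16.2% and 36.4% were called lower in these 3 comparisons, and 31%, 14% and 35.5% higher. At an unadjusted p below 0.05 in edgeR, 0 subunits were higher in the first interval and 1 in the second, and DESeq2 called 0 higher in both. Chd3, an ATPase of the complex, had means of 109, 30.2 and 37.2 CPM on the 3 days (log2 change -1.55 at day 4 against day 0, SE 0.12, adjusted p = 1.07e-06, edgeR). Rbbp7, a histone chaperone shared with other complexes, fell by 2.06 on the log2 scale (SE 0.20, adjusted p = 3.61e-06). The log2 change of Gatad2b was 0.37 (SE 0.12, adjusted p = 0.0191), and it was not called without the second day 0 library (0.25, adjusted p = 0.0738) or either day 4 library (adjusted p = 0.0902 and 0.0611).

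Tests also covered 7 other genes for proteins that bind methylated CpG or carry the same domain. At day 4 against day 0, 4 were called higher and 1 lower, beside 35.5% and 36.4% of all genes. Their median log2 change was 0.58. The gene called lower, Mbd1, passed the filter only through day 0, so that call carries no weight. Zbtb4, a zinc finger protein of the Kaiso family, rose from 7.24 to 12.8 and 18.9 CPM (log2 change 1.38, SE 0.22, adjusted p = 0.000172, edgeR). Mbd5, which carries the methyl-CpG binding domain, rose from 12.0 to 23.7 and 30.3 CPM (log2 change 1.34, SE 0.13, adjusted p = 3.52e-06). Mbd1 had 33 and 28 counts at day 0 and 1 to 3 counts in each later library. Its pooled day 0 level was 18.3 times that of day 4 (exact 95% interval 5.97 to 91.1, counting error only). For the same reason this interval is no test of a fall.

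**Figure D4:**
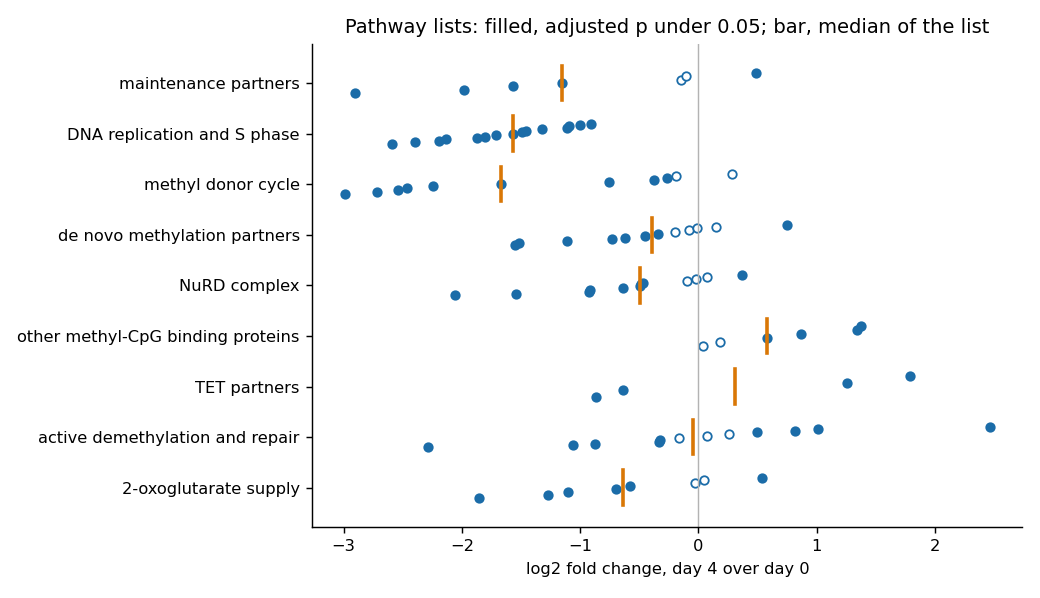
Log2 fold change at day 4 over day 0 for genes of 9 pathway lists; each point is a gene, filled where the adjusted p was below 0.05, and the orange bar is the median of the list's tested genes. Mbd1, at the floor on day 4, has no point; the replication and methyl donor lists lie furthest to the left, with medians of -1.56 and -1.67.

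The methyl group used by DNMT enzymes comes from S-adenosylmethionine, and TET enzymes need 2-oxoglutarate. Of 11 genes of the folate and methionine cycles, 9 were called lower and 0 higher at day 4 against day 0, with a median log2 change of -1.67, and 0 were higher at an unadjusted p below 0.05 in edgeR or by DESeq2. Shmt1, which passes a carbon unit from serine to folate, went from 96.9 to 20.2 and 12.2 CPM (log2 change -2.99, SE 0.18, adjusted p = 1.63e-07, edgeR), and Mthfd1 from 362 to 107 and 55.0 CPM (-2.72, SE 0.14, adjusted p = 4.77e-08). Of 8 genes that make or use 2-oxoglutarate, 5 were called lower and 1 higher. Both lists are to be read beside all genes, of which 36.4% were called lower and 35.5% higher. Idh3a fell by 1.85 on the log2 scale (SE 0.12, adjusted p = 2.69e-07) and Idh1 fell by 1.27 (SE 0.10, adjusted p = 1.22e-06), whereas Ogdh, which consumes 2-oxoglutarate, rose by 0.54 (SE 0.11, adjusted p = 0.00119).

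Genes that DNA methylation keeps silent in somatic cells were also looked at, although methylation itself was not measured. Of 14 germline genes, 10 had at most 3 counts in every library and 2 passed the filter on low counts. Over all genes, 10208 of 23896 had at most 3 counts in every library. Dazl, Mael, Sycp1, Sycp3, Tdrd1, Slc25a31, Asz1, Mov10l1, Tex101 and Hormad1 had 0 to 2 counts in every library. Tex19.1 had 20 and 26 counts at day 0, 8 and 10 at day 2, and 7 and 6 at day 4; it passed the filter only through day 0, so its lower later level carries no weight. Stag3 had 7 and 45 counts at day 0 and 4 and 7 at day 4, a call that rests on the second day 0 library, without which its log2 change was -0.35 (adjusted p = 0.689, edgeR) in place of -2.03 (adjusted p = 0.0264). It was also not called without either day 4 library (adjusted p = 0.0964 and 0.0714). Of the 2 germline genes tested in edgeR, 0 were called higher in any comparison, and 0 were higher at an unadjusted p below 0.05. With 2 genes tested, 1 of them kept only through day 0, this is no test of silencing. The rest of the list was too low to be tested. DESeq2, whose fit held 11 of the 14, called 0 higher and 1 lower at day 4 against day 0. Counts this low do not show that a gene is silent, only that it was not detectable above 3 counts per library.

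Imprinted genes, whose single active copy is set by methylation, were mostly low as well. Of 13 with a counted transcript, 11 had at most 3 counts in every library, beside 10208 of 23896 genes in all. An imprinted gene keeps 1 active copy, so low counts say nothing about its methylation. These were Igf2, Peg3, Peg10, Snrpn, Mest, Plagl1, Nnat, Meg3, Dlk1, Grb10 and Ndn. Igf2r rose from 111 to 155 and 261 CPM (log2 change 1.24 at day 4 against day 0, SE 0.16, adjusted p = 3e-05, edgeR), and Cdkn1c, a cell cycle inhibitor, went from 12.0 to 8.98 and 4.68 CPM (-1.36, SE 0.27, adjusted p = 0.000859; -0.83 without the second day 0 library).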

How the data were processed

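Poly(A)-selected, strand-specific RNA-seq libraries of MEL cells were made for 3 days with 2 replicates each. The authors trimmed adapters with cutadapt and mapped them to mm10 with TopHat, and their processing notes also name HTSeq and DESeq2. They deposited raw read counts per RefSeq transcript, 1 set per library, without normalization or pooling; the annotation release is not given in the sources used here. Reads on no feature stayed out of library sizes. They were 50.5% to 58.4% of the sum of transcript counts and no-feature reads. A read shared by several transcripts of a gene is counted for each, so this is not a share of a library's reads. Of 9 gene pairs with one transcript wholly inside exons of a gene on the opposite strand, 7 inner genes had under 10% of the outer gene's counts per kilobase, so the counts were treated as using strand. No exon of a member overlapped exons of another gene.

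Of 32654 counted transcripts, 32199 were named from a RefSeq table of GRCm38.p6 and 187 from GENCODE, and 268 stayed unnamed. The 9 genes and all gene lists were chosen with earlier results of these data known. One edgeR 4.0.16 quasi-likelihood model (R 4.3.3, TMM factors, filterByExpr by day) was fitted to all 6 libraries, with Benjamini-Hochberg adjustment over 18351 transcripts. SE is the log2 change over the square root of F. Percentages of genes called use 1 transcript per gene. CPM per kilobase divides by the exon length of the matching GENCODE transcript. The fit was tested on simulated counts. Where both libraries of a day had at most 3 counts, ratios come from pooled counts with exact binomial intervals, which cover counting error only.

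Genes are named by rule: the 9 members, the 2 largest called rises and falls of each list at day 4 against day 0, list genes with at most 3 counts in every library, and the 3 nearest profiles of the members with the largest fall and rise; those of Tet1 are not printed, since its later libraries were at the floor. Dnmt3l is named outside this rule and was chosen after its values were seen.

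Results were recomputed with DESeq2 1.42.0, RLE factors, total counts, without globin transcripts, no filter beyond 1 count, the replicate number as a block, a fit of only the days in a comparison, a log2 change of at least 1, 1 transcript per gene, the second transcript of a member, TPM, and leaving out each library; the transcript with the lowest mean count was added after the data were seen. H19 and Ly6g matched no counted transcript and were not analysed here, and 1 gene is not reported here.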

Additional observations from a re-analysis of the deposited data

Results flagged for a closer look

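Mbd3 was the 1 member whose second step differed from its first by the test of that difference. Over all 12381 genes tested, 30% were called for that difference, so the call alone does not set Mbd3 apart. Mbd3 had means of 116, 42.8 and 48.5 CPM at days 0, 2 and 4. Its log2 change in the second 2 days minus that in the first was 1.62 (SE 0.19, adjusted p = 0.000276, edgeR). In all 6 fits that left out 1 library it lay between 1.53 and 1.71, and it was called in each of them. Groups of 2 libraries are too small for a test of single outlying samples.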

How the results depend on the processing

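In the 3 comparisons of days, Uhrf1, Dnmt1 and Mbd3 kept the direction of each called change, and its call, in all alternatives but the size limit; the same held for Dnmt3b except for its first step, and for Tet2 at day 4 against day 0. With total counts, 1 member was called higher at day 2 against day 0 (Tet2, 0.41) and 2 were called for the difference of the steps, 1 of them lower (Dnmt3b, -0.72). With only the days compared, 5 members were called at day 4 against day 2, 2 of them higher (Dnmt3a and Tet2). A log2 change of at least 1 left 3 members called at day 2 against day 0, all 3 lower (Uhrf1, Mbd3 and Tet1). Tet1 passed the filter only through day 0, so its call carries no weight. With this limit 0 were called at day 4 against day 2, lower or higher, and 0 higher at day 4 against day 0. The calls over all lists became 34, 14 and 56 in place of 74, 58 and 89. The share of all genes called at this limit is not given here. Leaving out 1 library gave 4 to 7 members called at day 2 against day 0 (0 to 3 higher), 3 to 5 at day 4 against day 2 (0 to 2 higher), 6 to 8 at day 4 against day 0 (1 to 3 higher) and 1 to 2 for the difference of the steps (1 to 2 higher); list calls at day 4 against day 2 were 32 to 70, lowest without the first day 2 library. Without the second day 0 library Tet2, Tet3 and Mbd2 were called higher at day 2.

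Signs turned only among uncalled changes. With total counts these were Tet3 at day 4 against day 2 (-0.0084), Mbd2 at day 4 against day 0 (0.095) and the step differences of Dnmt3a (-0.036), Tet2 (-0.22) and Tet3 (-0.27). The step difference of Tet3 was -0.0041 with no filter, -0.0105 with the replicate block and -0.00066 with 1 transcript per gene. Leaving out 1 library, ranges were -0.057 to 0.17 for Dnmt3a, -0.15 to 0.32 for Tet3 and -0.18 to 0.28 for Mbd2 at day 2 against day 0. At day 4 against day 2 they were -0.012 to 0.15 for Tet3, -0.14 to 0.028 for Mbd2 and -0.67 to 0.032 for Tet1. At day 4 against day 0 they were -0.081 to 0.39 for Tet3 and -0.24 to 0.22 for Mbd2, and for the step differences -0.043 to 0.16 for Tet2, -0.24 to 0.22 for Tet3 and -0.33 to 0.12 for Mbd2. The causes were not tested.

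The replicate numbers did not pair the libraries: deviations of same-numbered libraries from their day means correlated at 0.032, 0.045 and 0.079 for the pairs of days. With the replicate block, 5, 3, 7 and 1 members were called at day 2 against day 0, day 4 against day 2, day 4 against day 0 and for the step difference, as without it. Tet1 could not be tested at day 4 against day 2 with only those days. Ratios within a library are the same in TPM by construction, with Dnmt1 at 6.37 times Uhrf1 per length at day 0. With the Dnmt3a transcript of the lowest count, Dnmt1 was 19.01 times Dnmt3a per length at day 0, in place of 28.4, on average. Depth limits Tet1 and Mbd1, whose later libraries held 1 to 3 counts.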
